A study of Homo sapiens with 33 samples.

Results

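The list held 33 genes of glycolysis and of the response to low oxygen, taken by gene symbol from the 29744 genes of the count table, and every one of the 33 was present. It was made up of 17 glycolytic enzymes, 3 transporters of glucose and lactate, 3 regulators of glycolytic flux, 8 other genes that hypoxia is known to raise, and the 2 oxygen-regulated subunits HIF1A and EPAS1. The first 3 groups are called the 23 glycolysis genes below, and the 8 are called the hypoxia targets. RNA-seq was available for 33 libraries, 3 replicates of each of 11 established human lines of high-grade serous ovarian cancer.

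The lines formed 4 families, each with a platinum-sensitive line and 1 or 2 resistant lines of the same origin. OVCAR3 and OVCAR4 were each compared with ResA and ResB, independent resistant lines made from them by repeated short pulses of cisplatin at rising dose and then kept without the drug. PEA1 and PEA2 were a sensitive and a resistant line from one patient, and PEO1 was the sensitive line beside the resistant PEO4 and PEO6 from another. The roles of sensitive and resistant line were taken from the study's description. No allele or transgene was introduced and no low-oxygen treatment is described, so all 11 lines were read in routine culture. The medium was RPMI with serum in every family, with insulin in the OVCAR3 and OVCAR4 media and pyruvate in the OVCAR3, PEA and PEO media. The PEA and PEO lines shared 1 medium. Levels between these, the OVCAR3 and the OVCAR4 families can not be told apart from differences in medium. Each resistant line is a single line, and the labels do not say that replicates came from separate cultures, so p-values measure the spread between these samples, which may be technical.

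Glycolysis turns glucose into pyruvate in the cytosol, and tumour cells often run it fast and reduce the pyruvate to lactate, which leaves the cell with a proton. The oxygen-regulated α subunits of the hypoxia-inducible factors, encoded by HIF1A and EPAS1, are hydroxylated and degraded when oxygen is present, and when it is scarce they pair with ARNT and bind DNA at short motifs whose core is ACGTG or GCGTG. Much of this control acts on the protein, so the transcript level of HIF1A is not a reading of its activity. Several members exist as isozymes with different tissue use, among them the hexokinases, phosphofructokinases, aldolases, enolases and lactate dehydrogenases.

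The windows below are the 250 bases before 1 annotated start site of 8 members, taken from RefSeq on GRCh38.p14, with every match to ACGTG on either strand in capitals. They are shown because each of these genes is described further on and because they set side by side windows with and without the motif. EPAS1 and ADM, which also moved by large amounts, had windows without ACGTG that are not printed. Where a gene has several start sites, the window with the most matches was printed.
CA9: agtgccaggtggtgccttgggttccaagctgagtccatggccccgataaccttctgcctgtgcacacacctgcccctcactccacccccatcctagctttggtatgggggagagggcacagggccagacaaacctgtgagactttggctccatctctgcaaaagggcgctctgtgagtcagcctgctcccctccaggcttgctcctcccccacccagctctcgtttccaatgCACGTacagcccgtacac
CA12: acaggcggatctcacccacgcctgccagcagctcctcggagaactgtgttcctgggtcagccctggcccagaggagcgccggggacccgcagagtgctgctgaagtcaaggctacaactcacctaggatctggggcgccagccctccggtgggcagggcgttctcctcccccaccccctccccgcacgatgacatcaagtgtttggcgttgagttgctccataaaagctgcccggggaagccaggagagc
EGLN3: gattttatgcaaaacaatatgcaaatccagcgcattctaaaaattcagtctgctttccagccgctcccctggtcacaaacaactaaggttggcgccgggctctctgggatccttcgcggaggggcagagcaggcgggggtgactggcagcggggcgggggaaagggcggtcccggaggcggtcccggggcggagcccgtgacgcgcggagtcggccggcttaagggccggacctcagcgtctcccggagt
BNIP3: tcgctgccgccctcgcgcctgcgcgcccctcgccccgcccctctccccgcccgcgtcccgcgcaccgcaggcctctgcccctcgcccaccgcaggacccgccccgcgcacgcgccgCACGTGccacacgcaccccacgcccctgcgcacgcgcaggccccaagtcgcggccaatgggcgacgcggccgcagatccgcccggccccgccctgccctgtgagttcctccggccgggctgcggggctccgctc
LDHA: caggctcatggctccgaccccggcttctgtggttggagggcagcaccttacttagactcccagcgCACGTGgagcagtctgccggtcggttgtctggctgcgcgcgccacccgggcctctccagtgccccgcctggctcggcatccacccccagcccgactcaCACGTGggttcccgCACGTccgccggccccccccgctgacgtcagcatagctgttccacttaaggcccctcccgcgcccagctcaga
PFKFB3: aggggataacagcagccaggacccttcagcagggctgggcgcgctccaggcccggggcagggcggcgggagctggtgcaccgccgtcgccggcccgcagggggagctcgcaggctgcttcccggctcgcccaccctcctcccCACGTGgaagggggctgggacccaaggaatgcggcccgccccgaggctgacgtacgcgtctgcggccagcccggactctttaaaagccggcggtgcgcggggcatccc
SLC16A3: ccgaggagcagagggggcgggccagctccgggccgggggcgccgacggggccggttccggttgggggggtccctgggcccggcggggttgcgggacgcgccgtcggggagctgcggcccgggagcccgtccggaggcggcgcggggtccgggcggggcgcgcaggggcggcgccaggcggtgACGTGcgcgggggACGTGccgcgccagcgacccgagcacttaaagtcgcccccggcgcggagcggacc
HK2: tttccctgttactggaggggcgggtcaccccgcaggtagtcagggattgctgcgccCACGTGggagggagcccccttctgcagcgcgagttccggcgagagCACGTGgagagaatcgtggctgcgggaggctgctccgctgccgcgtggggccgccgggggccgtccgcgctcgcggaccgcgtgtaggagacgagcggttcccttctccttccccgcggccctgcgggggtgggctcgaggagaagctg

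The windows lay at chr9:35673678-35673927 (plus strand) for CA9, chr15:63381847-63382096 (minus) for CA12, chr14:33951075-33951324 (minus) for EGLN3 and chr10:131981924-131982173 (minus) for BNIP3. Those of the glycolysis genes lay at chr11:18394313-18394562 for LDHA, chr10:6202682-6202931 for PFKFB3, chr17:82228792-82229041 for SLC16A3 and chr2:74834920-74835169 for HK2, all on the plus strand. LDHA held 5 matches in 3 stretches, since CACGTG reads as ACGTG on both strands and the shared bases are counted on each. The windows of CA12 and EGLN3 held no ACGTG, which says only that these letters are not in these bases. Of the 57 windows that RefSeq gave for 30 members, 20 (35.1%) held ACGTG, against 6501 of all 35116 windows (18.5%). With GCGTG counted as well, the shares were 57.9% and 43.2%. At the level of genes, 17 of 30 members (56.7%) had at least 1 window with ACGTG, 14 of 22 glycolysis genes (63.6%) and 3 of 6 hypoxia targets (CA9, BNIP3 and ANKRD37), against 21.7% of all genes. The shares of genes are not like for like, since a gene with more windows has more chances of a match. The 22 glycolysis genes had 48 windows, whereas all 27305 genes had 35116. VEGFA, NDRG1 and SLC16A1 had no entry. These matches are a description of sequence and not of binding.

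Total counts per library ran from 18058985 to 43394009. The 2 mitochondrial rRNA genes took 1.12 to 14.8% of the counts (median 3.45%), and this share was uneven in the OVCAR4 family, at 5.18, 14.8 and 12% in the 3 OVCAR4 libraries, 9.23, 2.02 and 2.09% in OVCAR4 ResA and 13.1, 2.47 and 2.39% in OVCAR4 ResB. The 17 enzymes took 0.642 to 2.66% of all TPM (a level per transcript length, scaled to the same total in each library). Of 8 markers of serous epithelium, at least 6 were at 1 TPM or more in every line. PEA1 was lowest, with a summed marker level of 429 TPM against 2700 to 7060 TPM in the other 10 lines, and with KRT19 at 0.459 TPM and MUC16 at 0.0696 TPM. Markers of fibroblasts, endothelium and leukocytes (9 genes) summed to 2.18 to 60.6 TPM per line, and CD68 was the highest of them in 9 of 11 lines. The exceptions were OVCAR4 ResA, where LUM was at 17.7 TPM against 1.54 TPM in OVCAR4, and OVCAR3 ResB, where PECAM1 was at 6.76 TPM against 0.0259 TPM in OVCAR3. In PEA2 CDH5 was at 7.02 TPM and PTPRC at 3.3 TPM, both 0 in PEA1, and PDGFRB was at 6.55 TPM in PEA1 and 0.0129 TPM in PEA2. The part of these markers in the results of those pairs was not tested.

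Differences are given as log2 fold changes of a resistant line against its sensitive line, ± the standard error, from DESeq2 fits across all genes of the 6 libraries of a pair, and a gene is called where the adjusted p is under 0.05. TPM values are listed in the order of replicates 1, 2 and 3. Where a call is said to be lost without a replicate, the fit with the highest adjusted p is given. Other fits may have lost that call too. Such losses are not stated for every gene, and calls kept in all 3 of these fits are counted near the end. The TPM scale and the fitted scale were offset in some pairs. The median of all genes was higher by 0.44 and 0.48 on the log2 TPM scale in OVCAR4 ResA and OVCAR4 ResB, by 0.14 and 0.12 in OVCAR3 ResA and OVCAR3 ResB, and lay between -0.10 and -0.02 in PEA2, PEO4 and PEO6, while the fitted all-gene medians lay between -0.02 and 0.02. TPM differences in the OVCAR4 family therefore read higher than the fitted ones. No called member changed its sign on the TPM scale. In bulk RNA a lower level in all cells and a smaller share of cells that express a gene cannot be told apart.

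The 7 pairs did not move these genes in one direction. In OVCAR3 ResA 16 members were higher and 8 lower, where 44.9% of all genes were called, 22.0% higher and 22.9% lower. In OVCAR3 ResB 4 were higher and none lower, at a background of 7.67% (4.10% higher and 3.57% lower). In OVCAR4 ResA 7 were higher and 1 lower, where 6.68% of all genes were called higher and 5.22% lower (11.9% in all). In OVCAR4 ResB 6 were higher and 4 lower of 32 with an adjusted p, where 9.09% of all genes were higher and 8.77% lower (17.9% in all). PEA2 had 8 higher and 11 lower of 32 (all genes 23.3% higher and 23.8% lower, 47.0% in all), and PEO4 had 7 higher and 9 lower (16.6% and 16.7%, 33.3% in all). PEO6 had 3 higher and 22 lower (21.2% and 20.3%, 41.4% in all). In PEO6 the lower calls were 66.7% of the members, and the median member stood at -0.80.

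**Figure D1:**
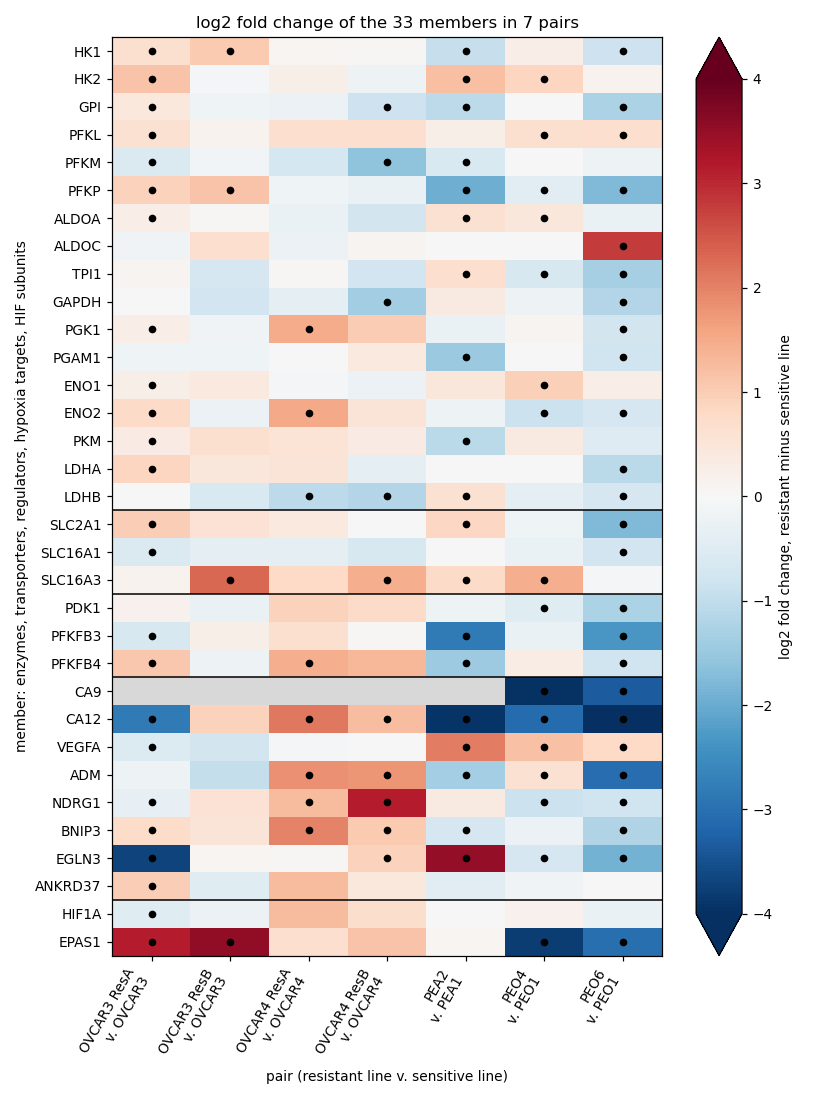
Log2 fold change of each of the 33 members (vertical axis, ordered by role) in each of the 7 resistant lines against its sensitive line (horizontal axis), with colour from lower to higher, a dot where the gene was called, and grey for CA9 where the sensitive line was at or under 3 counts. The PEO6 column holds 22 lower calls and the OVCAR3 ResA column 16 higher ones.

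Glycolysis genes and hypoxia targets had different counts in several pairs. In OVCAR3 ResA 13 of the 23 glycolysis genes were higher (56.5%) and 3 lower, with a median of 0.25, whereas 2 of the 8 hypoxia targets were higher and 4 lower, with a median of -0.26. In OVCAR4 ResA it was the hypoxia targets that stood high, with 4 of 8 called higher and a median of 1.55. Of the 23 glycolysis genes 3 were higher there and 1 was lower, and their median was 0.07. The hypoxia medians of OVCAR3 ResA and OVCAR4 ResA include CA9, which was at no more than 3 counts in OVCAR3 and OVCAR4. OVCAR4 ResB had 5 of 7 hypoxia targets higher (71.4%, median 1.05), whereas 1 of 23 glycolysis genes was higher and 4 were lower. The glycolysis counts of both OVCAR4 pairs turned with the setting. Without replicate 1 they were 11 higher and 2 lower in ResA and 10 higher and 6 lower in ResB. By contrast, without replicate 3 none was called in either. The share of all genes called in those fits was not counted. The glycolysis median of OVCAR4 ResB was -0.03 on the fitted scale and 0.53 on the TPM scale, so its sign depended on the scaling, as it did in OVCAR3 ResB (-0.09 and 0.04) and PEO4 (0.01 and -0.03). In PEO6 both groups were low, with 15 of 23 glycolysis genes called lower (65.2%, median -0.76) and 6 of 8 hypoxia targets (75.0%, median -1.55). PEA2 and PEO4 were mixed, with 6 higher and 8 lower glycolysis genes in PEA2 and 5 higher and 4 lower in PEO4. In the 8 hypoxia targets the counts were 2 higher and 3 lower of 7 in PEA2 and 2 higher and 4 lower in PEO4. The difference between the groups of genes within a pair was not tested.

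**Figure D2:**
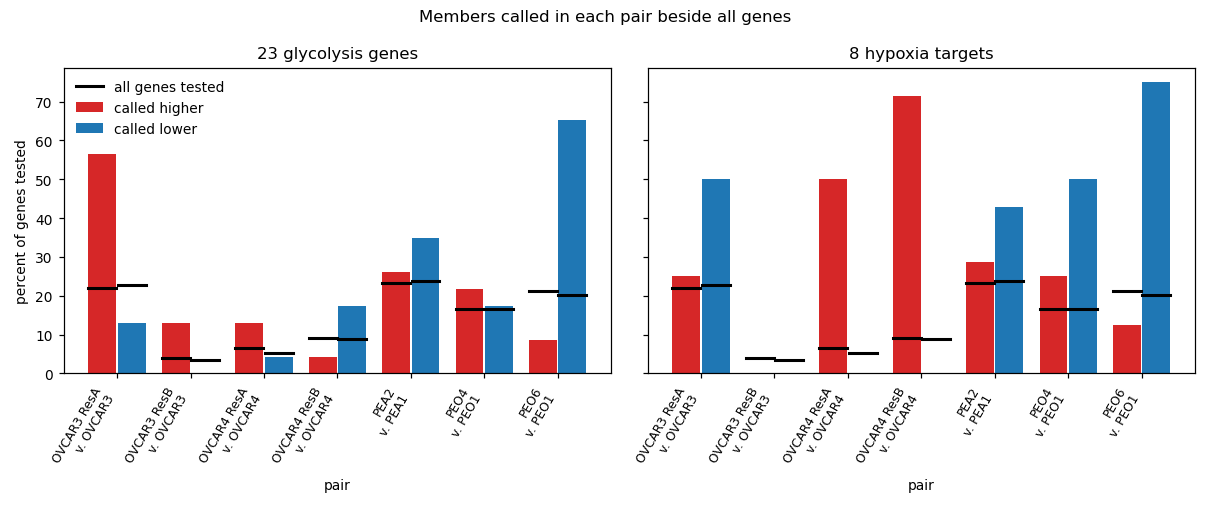
Percent of genes called higher (left bar of each pair) and lower (right bar) in each of the 7 pairs, for the 23 glycolysis genes and the 8 hypoxia targets, with a black line for all genes tested. The bars of the glycolysis genes reach 56.5% higher in OVCAR3 ResA and 65.2% lower in PEO6, and those of the hypoxia targets 71.4% higher in OVCAR4 ResB and 75.0% lower in PEO6.

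Glucose enters through SLC2A1, the widespread glucose carrier GLUT1. Its level was 37.2, 26.6 and 24.6 TPM in OVCAR3 and 66.6, 70.5 and 52.2 TPM in OVCAR3 ResA. All 3 ResA libraries lay above all 3 OVCAR3 libraries, and the gene rose by 0.97 ± 0.12 (adjusted p = 5.95e-15). In the PEO family the order was reversed in PEO6, where SLC2A1 was at 42.8, 35.5 and 47.9 TPM against 152, 116 and 153 TPM in PEO1. The groups did not overlap, and the fall was -1.76 ± 0.21 (adjusted p = 1.78e-15). PEO4, compared with the same PEO1 libraries, was at 143, 130 and 96.0 TPM and was not called (-0.17). SLC2A1 also rose in PEA2, by 0.82 ± 0.22 (adjusted p = 0.000537).

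Hexokinase makes glucose 6-phosphate, and HK2 is the isozyme most often linked to tumour cells. HK2 was at 16.0, 17.6 and 13.1 TPM in OVCAR3 and at 39.4, 33.5 and 40.0 TPM in OVCAR3 ResA, where it was the glycolysis gene with the largest rise. The groups were apart, with a log2 fold change of 1.14 ± 0.14 (adjusted p = 1.09e-14). OVCAR3 ResB, set against the same OVCAR3 libraries, was at 16.1, 11.1 and 21.7 TPM, and HK2 was not called there (-0.09). The resistant lines differed from each other by -1.23 ± 0.32 for ResB against ResA (adjusted p = 0.00196). That call stayed in 1 of 3 fits with a replicate left out (adjusted p = 0.176 without replicate 2). In PEA2 the gene stood at 39.0, 33.3 and 28.0 TPM against 17.3, 14.1 and 15.8 TPM in PEA1. Here too the groups were apart, and it rose by 1.21 ± 0.22 (adjusted p = 1.75e-07), as it did in PEO4 by 0.85 ± 0.19 (adjusted p = 4.34e-05). HK2 was called in 3 pairs, each time higher. HK1, the widespread isozyme, was higher in OVCAR3 ResA (0.65) and OVCAR3 ResB (1.05) and lower in PEA2 (-0.93) and PEO6 (-0.82).

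The share of HK2 in the summed TPM of HK1 and HK2, a ratio within each library that does not depend on library scaling, was 27.4 ± 7.10% (SD, n = 3) in PEA1 and 61.8 ± 4.10% in PEA2. It was 43 ± 4.83% in OVCAR3, 51.4 ± 1.89% in ResA and 25.5 ± 2.36% in ResB, so the 3 ranges in that family did not overlap. It lay between 36.8 and 43.9% in the OVCAR4 family and between 29.7 and 45.0% in the PEO family, where neighbouring lines overlapped.

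Phosphofructokinase commits sugar to glycolysis, and its liver (PFKL), muscle (PFKM) and platelet (PFKP) isozymes moved apart from each other. PFKM was at 45.4, 24.1 and 35.0 TPM in OVCAR4 and 6.80, 23.1 and 24.8 TPM in OVCAR4 ResB, the largest fall among glycolysis genes in that pair. The groups touched in TPM and were apart in normalised counts, with a log2 fold change of -1.62 ± 0.43 (adjusted p = 0.00199). That call was lost without replicate 3 (adjusted p = 0.0624). PFKM also fell in OVCAR3 ResA (-0.57) and PEA2 (-0.62) and was called higher nowhere. PFKL was at 43.6, 27.7 and 33.2 TPM in PEO1 and 37.8, 50 and 89.5 TPM in PEO6. These groups overlapped in TPM and were apart in normalised counts, and the rise was 0.67 ± 0.27 (adjusted p = 0.0345). The call stayed in 1 of 3 fits with a replicate left out (adjusted p = 0.46 without replicate 3). PFKL was higher in 3 pairs and lower in none, the others being OVCAR3 ResA (0.61) and PEO4 (0.63).

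PFKP had the widest swing of the 3. It was at 316, 150 and 320 TPM in PEA1 and 65.1, 59.8 and 52.1 TPM in PEA2, with no overlap, and fell by 1.95 ± 0.25 on the log2 scale (adjusted p = 2.2e-14). It fell in PEO6 as well (-1.76 ± 0.22, adjusted p = 2.62e-14), whereas it rose in OVCAR3 ResA (0.92) and OVCAR3 ResB (1.14), from levels of 11.7, 6.87 and 7.22 TPM in OVCAR3. PFKP made up 76.3 ± 0.978% of the summed PFKL, PFKM and PFKP TPM in PEA1 and 47.6 ± 1.27% in PEA2. In the PEO family the share was 71.5 ± 2.0% in PEO1, 59.8 ± 3.09% in PEO4 and 38.6 ± 6.28% in PEO6, with 3 ranges that did not overlap. OVCAR3 had 12 ± 0.814%, below both ResA (18.9 ± 1.75%) and ResB (22.9 ± 3.79%), whereas the OVCAR4 family kept 56.2 to 59.2%.

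**Figure D3:**
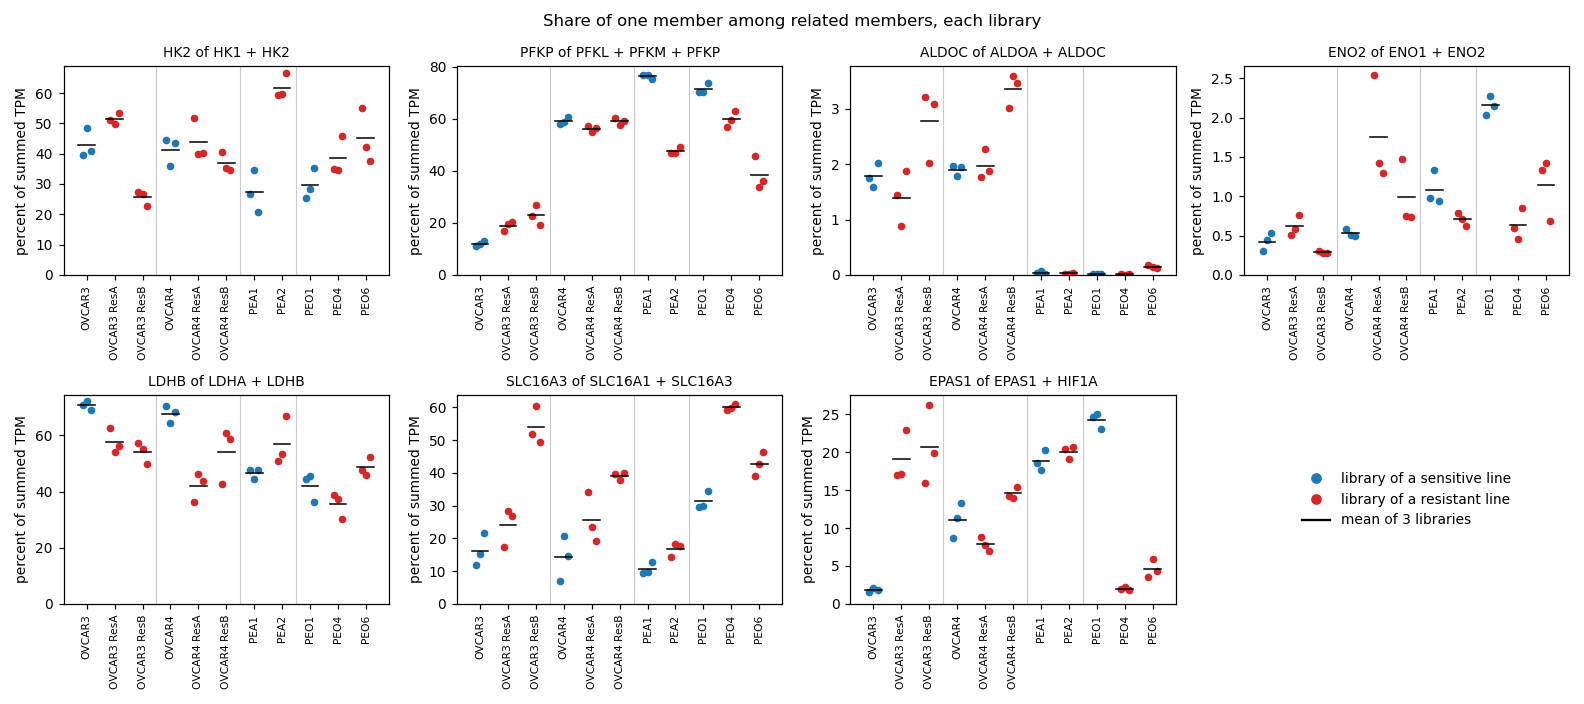
Share of 1 isozyme or paralogue in the summed TPM of its set (vertical axis, percent) in each of the 33 libraries, by line (horizontal axis), for 7 sets, with points for libraries and a bar for the mean of 3. PFKP falls from 76.3% in PEA1 to 47.6% in PEA2, and SLC16A3 rises from 31.4% in PEO1 to 60% in PEO4.

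PFKFB3 and PFKFB4 make and remove fructose 2,6-bisphosphate, the strongest allosteric activator of phosphofructokinase. PFKFB3 was at 84.0, 54.0 and 90.6 TPM in PEA1 and 11.5, 10.6 and 7.06 TPM in PEA2. The groups were far apart and PFKFB3 fell by 2.84 ± 0.25 on the log2 scale (adjusted p = 2.06e-28). It fell by 2.34 ± 0.23 in PEO6 (adjusted p = 8.96e-22), from 49.5, 35.2 and 46.4 TPM in PEO1 to 7.78, 6.70 and 12.8 TPM. PEO4, with the same reference, was at 41.4, 34.6 and 30.8 TPM and was not called (-0.26), and PEO6 was lower than PEO4 by 2.08 ± 0.31 (adjusted p = 6.45e-10). The decrease in OVCAR3 ResA was smaller, with 5.12, 7.16 and 3.27 TPM against 9.27, 6.73 and 5.55 TPM in OVCAR3. These libraries overlapped, and the change was -0.65 ± 0.19 (adjusted p = 0.00239). The call stayed in 1 of 3 fits with a replicate left out (adjusted p = 0.21 without replicate 1).

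PFKFB4 did not follow PFKFB3. It rose in OVCAR3 ResA (1.08 ± 0.21, adjusted p = 1e-06), where PFKFB3 was lower, and in OVCAR4 ResA (1.44 ± 0.41, adjusted p = 0.00779). It fell in PEA2 (-1.45) and PEO6 (-0.79). Its levels were low throughout, between 0.986 and 12 TPM in single libraries. PDK1, a kinase that holds pyruvate back from the mitochondrial dehydrogenase complex, fell in PEO6 (-1.28 ± 0.23, adjusted p = 3.87e-07) and PEO4 (-0.48) and was called in no other pair.

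Several enzymes between fructose bisphosphate and pyruvate fell in PEO6. There TPI1 fell by 1.32 ± 0.23 (adjusted p = 1.77e-07), GAPDH by 1.17 ± 0.22 (adjusted p = 6.32e-07), PGAM1 by 0.81 and PGK1 by 0.72 on the log2 scale. GPI, the isomerase before phosphofructokinase, fell by 1.26 ± 0.21 (adjusted p = 1.25e-08). ALDOA, ENO1 and PKM were not called in PEO6, at -0.28, 0.28 and -0.53. The PEO6 calls of PGK1 and PGAM1 were lost without replicate 2 (adjusted p = 0.272 and 0.171). In PEA2 PGAM1 changed by -1.48 (adjusted p = 1.14e-08) and PKM by -1.09 (adjusted p = 0.000121). ALDOA and TPI1 rose in PEA2 (adjusted p = 0.0111 and 0.00993). In OVCAR3 ResA small rises were called for ALDOA (0.28), PGK1 (0.25), ENO1 (0.22) and PKM (0.33), whereas GAPDH (0.03), TPI1 (0.12) and PGAM1 (-0.17) were not called.

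GAPDH, the dehydrogenase whose transcript often serves as a reference in qPCR, was among the most abundant members. It was at 4370, 5360 and 5230 TPM in OVCAR4 and 2100, 3130 and 3460 TPM in OVCAR4 ResB. The groups did not overlap, and GAPDH fell by 1.39 ± 0.31 (adjusted p = 0.000139). The call for GAPDH stayed in 1 of 3 fits with a replicate left out (adjusted p = 0.128 without replicate 3). It was not called in OVCAR4 ResA (-0.40), at 5500, 5570 and 5310 TPM, and ResB was lower than ResA by 0.99 ± 0.13 (adjusted p = 1.16e-12). PGK1, the next enzyme, was at 380, 1060 and 1010 TPM in OVCAR4 ResA against 309, 120 and 172 TPM in OVCAR4. It rose by 1.49 ± 0.43 (adjusted p = 0.0084). The call stayed in 1 of 3 fits with a replicate left out (adjusted p = 0.501 without replicate 2).

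ENO2, the enolase of neurons and of many tumours, is far less abundant than ENO1. It was at 10.4, 5.32 and 6.39 TPM in OVCAR4 and 26.4, 32.9 and 29.2 TPM in OVCAR4 ResA, the largest glycolytic rise in that pair. No libraries overlapped, and the change was 1.53 ± 0.33 (adjusted p = 0.000111). The call stayed in 1 of 3 fits with a replicate left out (adjusted p = 0.162 without replicate 2). In PEO4 it was the glycolysis gene with the largest fall, at 17, 12 and 11.6 TPM against 26.9, 21.5 and 26.7 TPM in PEO1. These groups were also apart, with a change of -0.87 ± 0.19 (adjusted p = 5.46e-05), while ENO1 rose in the same pair by 0.94 ± 0.20 (adjusted p = 3.21e-05). ENO2 accordingly made up 2.15 ± 0.123% of enolase TPM in PEO1 and 0.635 ± 0.201% in PEO4.

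At the end of the pathway LDHA favours the making of lactate and LDHB its use. LDHA was at 1020, 655 and 552 TPM in OVCAR3 and 1640, 1500 and 1180 TPM in OVCAR3 ResA. The groups were apart, and LDHA rose by 0.87 ± 0.11 (adjusted p = 3.83e-14) while LDHB was not called there (0.02). LDHA fell by 1.07 ± 0.26 in PEO6 (adjusted p = 0.000195) and was called in no other pair. LDHB was at 2660, 1090 and 1720 TPM in OVCAR4 and 747, 1580 and 1450 TPM in OVCAR4 ResA. These overlapped in TPM but not in normalised counts, and the fall was -1.04 ± 0.38 (adjusted p = 0.0493). The call stayed in 1 of 3 fits with a replicate left out (adjusted p = 0.636 without replicate 3). LDHB made up 67.8 ± 3.11% of the summed LDHA and LDHB TPM in OVCAR4, 42.0 ± 5.21% in ResA and 54.2 ± 10.0% in ResB, and 70.7 ± 1.58% in OVCAR3, 57.6 ± 4.41% in ResA and 54.1 ± 3.93% in ResB. In both families each resistant line lay below its sensitive line in all libraries, whereas PEA2 (57.0 ± 8.62%) lay above PEA1 (46.5 ± 1.93%).

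**Figure D4:**
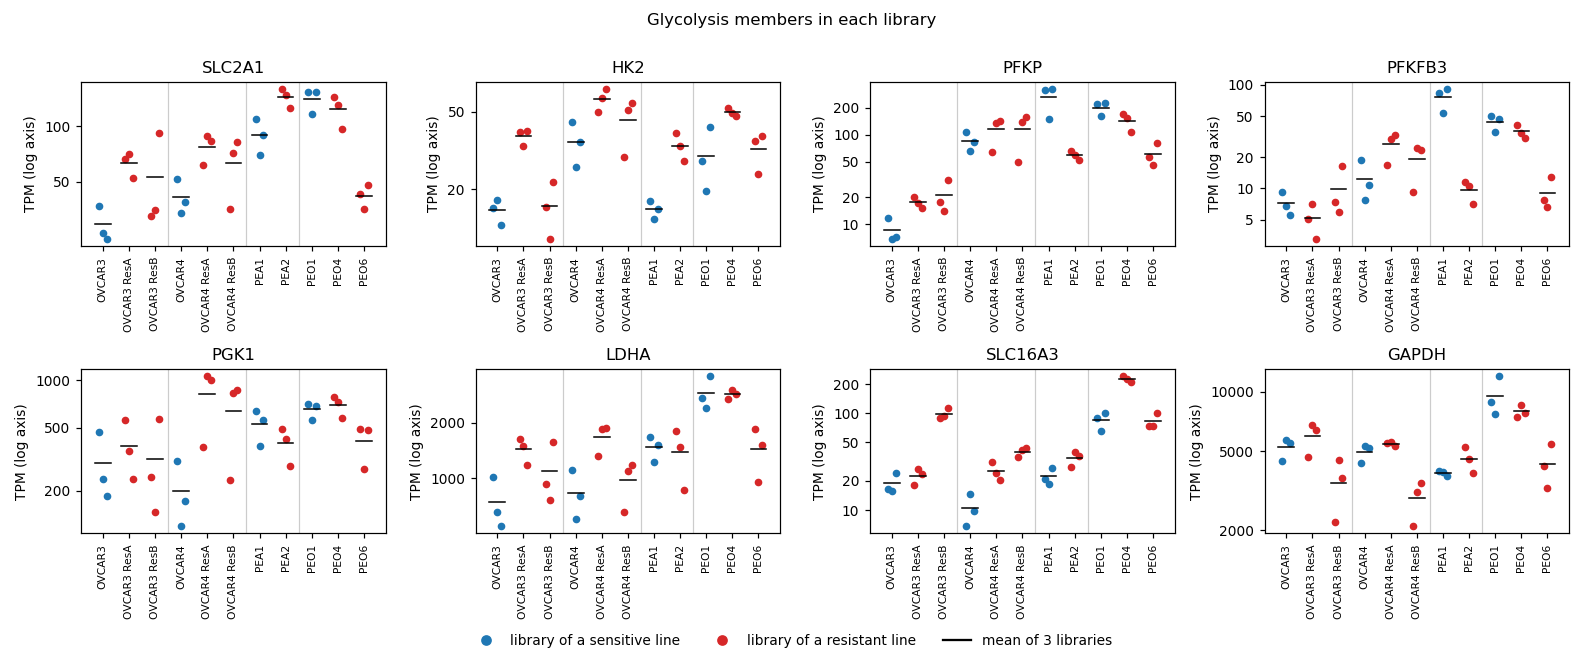
TPM (vertical axis, logarithmic) of SLC2A1, HK2, PFKP, PFKFB3, PGK1, LDHA, SLC16A3 and GAPDH in every library (points) of the 11 lines (horizontal axis), 1 panel for each gene. SLC16A3 lies at 90.2 to 114 TPM in OVCAR3 ResB against 15.9 to 24.2 TPM in OVCAR3, and PFKFB3 at 7.06 to 11.5 TPM in PEA2 against 54.0 to 90.6 TPM in PEA1.

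SLC16A3, the lactate exporter MCT4 of strongly glycolytic cells, rose in 4 pairs and fell in none of the other 3, which is the highest number of calls in 1 direction without a call in the other among the members. It was at 16.6, 15.9 and 24.2 TPM in OVCAR3 and 90.2, 92.8 and 114 TPM in OVCAR3 ResB. All ResB libraries lay above OVCAR3, with a change of 2.30 ± 0.35 (adjusted p = 3.3e-09). OVCAR3 ResA, set against the same libraries, was at 18.2, 26.5 and 23.3 TPM and was not called (0.13), and ResB was higher than ResA by 2.17 ± 0.33 (adjusted p = 5.18e-09). In OVCAR4 ResB the gene stood at 35.3, 41.8 and 43.2 TPM against 6.85, 14.5 and 9.76 TPM in OVCAR4. The groups were apart, with a rise of 1.44 ± 0.42 (adjusted p = 0.00577), and the call was lost without replicate 3 (adjusted p = 0.204).

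SLC16A3 rose in PEO4 by 1.45 ± 0.16 (adjusted p = 2e-17), from 90.2, 65.9 and 99.4 TPM in PEO1 to 240, 223 and 210 TPM. PEO6 was at 74.4, 73.2 and 101 TPM, was not called against PEO1 (-0.05) and was lower than PEO4 by 1.51 ± 0.28 (adjusted p = 1.81e-06). In PEA2 the rise was 0.77 ± 0.24 (adjusted p = 0.00419). That call stayed in 1 of 3 fits with a replicate left out (adjusted p = 0.0829 without replicate 2). SLC16A1 (MCT1), which carries lactate in both directions, was lower in OVCAR3 ResA (-0.59 ± 0.10, adjusted p = 8.13e-09) and PEO6 (-0.76 ± 0.21, adjusted p = 0.00101) and called higher nowhere. The share of SLC16A3 in the summed TPM of the pair went from 16.2 ± 4.92% in OVCAR3 to 53.9 ± 5.73% in ResB, from 14.1 ± 6.93% in OVCAR4 to 39.1 ± 1.23% in ResB, and from 31.4 ± 2.75% in PEO1 to 60 ± 0.957% in PEO4. The lowest library of each of these resistant lines lay above the highest of its sensitive line.

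The carbonic anhydrases CA9 and CA12 sit at the cell surface and help to clear acid. CA12 moved most of all members. It was at 55.8, 42.8 and 30.0 TPM in PEO1 and 0.406, 0.277 and 0.476 TPM in PEO6, with no overlap and a fall of 6.79 ± 0.31 on the log2 scale (adjusted p = 4.03e-103). PEO4 was at 4.69, 6.16 and 3.77 TPM against the same libraries, lower by 3.09 ± 0.20 (adjusted p = 7.02e-50). In PEA2 CA12 was at 2.06, 1.36 and 0.708 TPM against 29.2, 19 and 17 TPM in PEA1. Those groups were also apart (-3.93 ± 0.26, adjusted p = 8.17e-50).

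In the OVCAR4 family CA12 went the opposite way, at 56.6, 61.4 and 54.5 TPM in ResA and 25.5, 36.1 and 34.5 TPM in ResB against 9.64, 9.91 and 8.18 TPM in OVCAR4. Neither resistant line overlapped with OVCAR4, and the rises were 2.12 ± 0.31 (adjusted p = 1.07e-09) and 1.22 ± 0.31 (adjusted p = 0.00109). The ResB call stayed in 1 of 3 fits with a replicate left out (adjusted p = 0.281 without replicate 3). OVCAR3 ResA fell (-2.82 ± 0.40, adjusted p = 1.57e-11) from the low level of 1.28, 1.66 and 1.92 TPM in OVCAR3, and OVCAR3 ResB was not called (0.93) but was higher than ResA by 3.75 ± 0.50 (adjusted p = 8.95e-12). CA12 was thus higher in 2 pairs and lower in 4.

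CA9, the isozyme widely used as a marker of hypoxia, was at or near 0 in most libraries outside the PEO family. It was at 65.4, 56.4 and 45.2 TPM in PEO1 and 4.71, 3.51 and 2.48 TPM in PEO4. The groups were far apart, with a fall of 3.96 ± 0.22 on the log2 scale (adjusted p = 6.94e-73). PEO6 was also below PEO1, at 11.7, 4.24 and 3.53 TPM (-3.32 ± 0.32, adjusted p = 3.48e-23). In OVCAR3 and OVCAR4 no library held more than 3 CA9 counts and PEA1 held 0, so no fold change is given for those pairs. OVCAR4 ResA replicate 1 held 54 counts and the other 2 replicates 1 and 4.

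**Figure D5:**
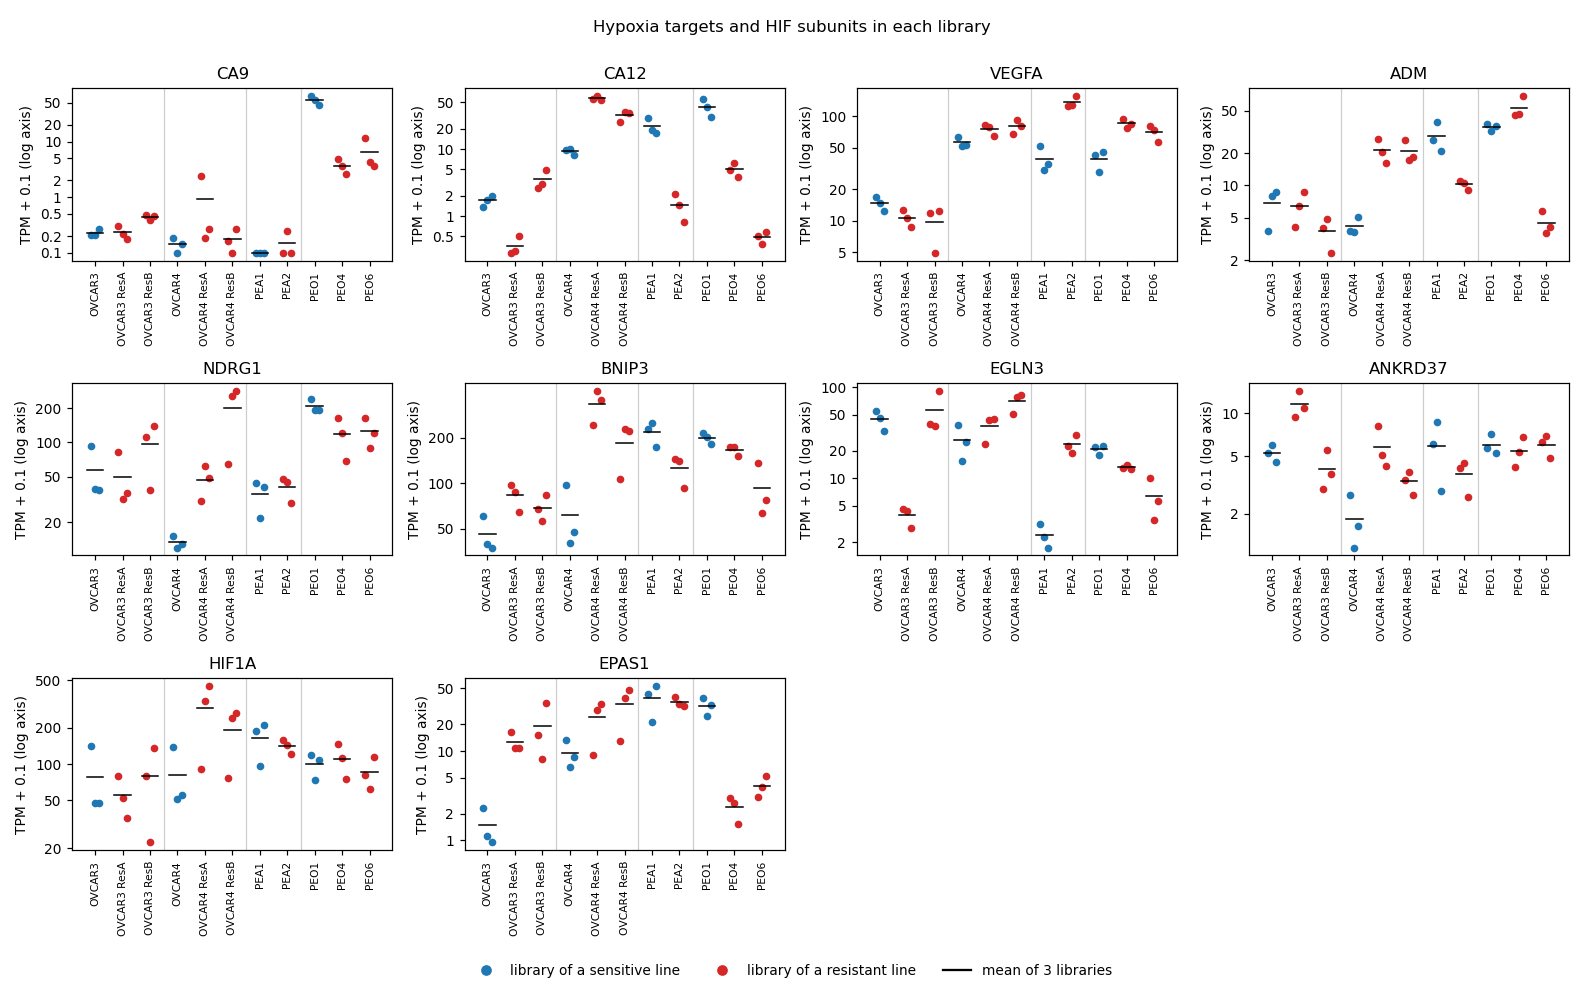
TPM + 0.1 (vertical axis, logarithmic) of the 8 hypoxia targets, HIF1A and EPAS1 in every library (points) of the 11 lines (horizontal axis), 1 panel for each gene. CA9 reaches 45.2 to 65.4 TPM in PEO1 and no more than 2.26 TPM in any library of the OVCAR3, OVCAR4 and PEA families.

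EGLN3, a prolyl hydroxylase that marks the HIF subunits for degradation and is itself induced by them, gave changes of opposite sign. It was at 54.2, 45.6 and 33.3 TPM in OVCAR3 and 4.55, 4.23 and 2.75 TPM in OVCAR3 ResA. No libraries overlapped, and it fell by 3.69 ± 0.15 on the log2 scale (adjusted p = 1.51e-132). OVCAR3 ResB was at 39.8, 37.2 and 90.7 TPM, was not called against the same OVCAR3 libraries (0.09) and was higher than ResA by 3.78 ± 0.39 (adjusted p = 4.25e-20). In PEA2 the gene rose by 3.52 ± 0.35 (adjusted p = 7.87e-23), from 3.04, 2.15 and 1.64 TPM in PEA1 to 22.5, 18.9 and 29.8 TPM. It also rose in OVCAR4 ResB (0.92) and fell in PEO4 (-0.67) and PEO6 (-1.89). PEA1 and PEA2 differed in epithelial markers as well, with EPCAM at 14.0 and 575 TPM and KRT7 at 2.95 and 1190 TPM, and the part of this in any PEA2 result was not tested.

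NDRG1, a stress-responsive gene that hypoxia and differentiation raise, was at 15.2, 11.9 and 12.7 TPM in OVCAR4 and 64.5, 256 and 282 TPM in OVCAR4 ResB. Every ResB library lay above OVCAR4, replicate 1 much less so than the other 2, with a rise of 3.13 ± 0.41 (adjusted p = 1.92e-12). In OVCAR4 ResA, set against the same libraries, it was at 30.4, 62.0 and 48.9 TPM and rose by 1.28 ± 0.32 (adjusted p = 0.00131). That ResA call stayed in 1 of 3 fits with a replicate left out (adjusted p = 0.342 without replicate 2). ResB exceeded ResA by 1.85 ± 0.37 (adjusted p = 6.97e-06). NDRG1 was lower in OVCAR3 ResA (-0.32), PEO4 (-0.87) and PEO6 (-0.80).

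BNIP3, which recruits mitochondria to autophagy, was at 97.2, 40.4 and 47.5 TPM in OVCAR4 and 242, 407 and 356 TPM in OVCAR4 ResA. The groups were apart (1.99 ± 0.35, adjusted p = 1.3e-06), and ResB, at 107, 227 and 220 TPM, also rose by 1.05 ± 0.39 (adjusted p = 0.0402). The ResB call stayed in 1 of 3 fits with a replicate left out (adjusted p = 0.645 without replicate 3). BNIP3 rose in OVCAR3 ResA (0.73) and fell in PEA2 (-0.68) and PEO6 (-1.20). ADM, the precursor of the vasodilator adrenomedullin, was at 3.67, 3.59 and 4.96 TPM in OVCAR4, 26.9, 20.5 and 16.0 TPM in ResA and 26.4, 17.3 and 18.4 TPM in ResB. Both resistant lines lay above OVCAR4 and rose by 1.83 ± 0.46 (adjusted p = 0.00178) and 1.75 ± 0.47 (adjusted p = 0.00211). In PEO6 ADM fell by 3.06 ± 0.29 (adjusted p = 5.63e-25), from 37.8, 32.2 and 35.8 TPM to 5.67, 3.46 and 3.95 TPM, whereas PEO4 rose slightly against the same PEO1 libraries (0.61 ± 0.22, adjusted p = 0.0192). ADM fell in PEA2 as well (-1.35).

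In OVCAR4 ResA and ResB the 4 and 5 hypoxia targets called higher stayed at 4 and 5 without replicate 1. Without replicate 2 there were 2 in each line, and without replicate 3 there were 3 and 2. The mitochondrial rRNA share was uneven in these pairs. It was higher in both resistant lines than in OVCAR4 in replicate 1 and lower in replicates 2 and 3. In a fit of all 33 libraries 6 and 5 were higher, and with that share as a covariate in the same fit, added after the data had been seen, 5 were higher in each line, with none lower in either fit. In the fit without the covariate, the 23 glycolysis genes had 5 higher and 2 lower in ResA and 4 higher and 6 lower in ResB. With the covariate they had 4 higher and 7 lower in ResA and 2 higher and 9 lower in ResB. The share of all genes called was not counted for these settings.

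VEGFA, the main growth factor for blood vessels, rose in 3 pairs. It was at 42.5, 29.2 and 45.7 TPM in PEO1, 93.9, 77.8 and 84.8 TPM in PEO4 and 80.2, 73.3 and 56.8 TPM in PEO6. Both resistant lines lay above PEO1 in every library, by 1.16 ± 0.16 (adjusted p = 2.45e-11) and 0.81 ± 0.25 (adjusted p = 0.00362), although 6 of the other hypoxia targets fell in PEO6. The rise in PEA2 was 2.05 ± 0.26 (adjusted p = 7.44e-14), and the fall in OVCAR3 ResA -0.54 ± 0.15 (adjusted p = 0.000766). ANKRD37, a small ankyrin-repeat gene induced by HIF, was called once among the 7 pairs. It was at 5.21, 5.96 and 4.45 TPM in OVCAR3 and 9.36, 14.2 and 10.7 TPM in OVCAR3 ResA, apart by 0.98 ± 0.28 (adjusted p = 0.00146). The call stayed in 1 of 3 fits with a replicate left out (adjusted p = 0.106 without replicate 3).

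Of the HIF subunits, EPAS1 (HIF-2α) was called in 4 of the 7 pairs and HIF1A (HIF-1α) in 1. EPAS1 was at 2.23, 1.03 and 0.852 TPM in OVCAR3, 16.4, 10.8 and 10.6 TPM in ResA and 15.1, 7.95 and 33.9 TPM in ResB. Both resistant lines lay above OVCAR3 in every library, by 3.13 ± 0.18 (adjusted p = 1.51e-64) and 3.54 ± 0.42 (adjusted p = 1.18e-14), and they were not called different from each other (0.40). In the PEO family the direction was opposite, with 38.6, 24.7 and 32.4 TPM in PEO1, 2.88, 2.55 and 1.44 TPM in PEO4 and 2.95, 3.90 and 5.12 TPM in PEO6. Neither resistant line overlapped with PEO1, and the falls were -3.79 ± 0.21 (adjusted p = 1.87e-73) and -3.03 ± 0.24 (adjusted p = 1.28e-33). In the OVCAR4 and PEA pairs EPAS1 was not called, at 0.67, 1.13 and 0.07. The share of EPAS1 in the summed EPAS1 and HIF1A TPM was 1.82 ± 0.285% in OVCAR3, 19.1 ± 3.45% in ResA and 20.7 ± 5.23% in ResB, and 24.3 ± 1.03% in PEO1, 2.0 ± 0.190% in PEO4 and 4.57 ± 1.25% in PEO6.

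The call of HIF1A was in OVCAR3 ResA. It was at 141, 47.3 and 47.1 TPM in OVCAR3 and 80.1, 52.1 and 35.3 TPM in OVCAR3 ResA. The libraries overlapped, the change was -0.50 ± 0.14 (adjusted p = 0.0011), and the call was lost without replicate 1 (adjusted p = 0.19). In the OVCAR4 family HIF1A was at 139, 51.2 and 55.1 TPM in OVCAR4, 91.8, 334 and 448 TPM in ResA and 76.1, 242 and 264 TPM in ResB, with changes of 1.26 and 0.69 that were not called at this spread. Without replicate 1 both HIF1A and EPAS1 were called in both OVCAR4 pairs. Replicate 1 stood apart there in the same libraries in which the mitochondrial rRNA share did. The fitted change was 0.17 in PEO4, -0.26 in PEO6 and -0.03 in PEA2, none of them called.

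Direct comparisons of resistant lines of the same family gave the difference between them. In OVCAR3 ResB against ResA 3 members were higher and 3 lower, where 13.5% of all genes were called, 7.47% higher and 6.04% lower. The higher ones were EGLN3, CA12 and SLC16A3 and the lower ones HK2, PFKFB4 (-1.27) and ANKRD37 (-1.48). In OVCAR4 ResB against ResA 5 were higher and 15 lower (all genes 16.2% higher and 16.5% lower, 32.8% in all), with 12 of the 23 glycolysis genes lower, among them LDHA (-0.86 ± 0.09, adjusted p = 4.16e-21), GPI (-0.62 ± 0.08, adjusted p = 1.67e-14) and GAPDH. Without the replicate block only 7 of these 20 were called. In PEO6 against PEO4 1 was higher and 15 lower (all genes 9.86% higher and 8.33% lower, 18.2% in all), with ADM (-3.67 ± 0.37, adjusted p = 6.07e-21), CA12 (-3.71 ± 0.42, adjusted p = 2.4e-16), PFKFB3 and SLC2A1 (-1.59 ± 0.29, adjusted p = 8.74e-07) at the low end. The single higher member was ALDOC, at 1.66, 1.12 and 1.53 TPM in PEO6 against 0.242, 0.105 and 0.268 TPM in PEO4 (2.84 ± 0.83, adjusted p = 0.00589).

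Counted over the 7 pairs, all 33 members were called in at least 1 pair. Of these 18 were higher in one pair and lower in another, 7 were called only higher and 8 only lower, and none was called in 1 direction in 5 or more pairs. The same counts were not made over all genes. Single pairs called from 7.67% (OVCAR3 ResB) to 47.0% (PEA2) of all genes, so these counts do not set the members apart. A likelihood-ratio test of unequal change over the 7 pairs called 30 of 33 members, where it called 68.6% of all genes. The 3 not called were PFKL (adjusted p = 0.804), ENO1 (adjusted p = 0.458) and HIF1A (adjusted p = 0.106).

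With lines as the unit, 7 resistant against 4 sensitive lines with the family in the fit, DESeq2 called 0 of 33 members, where 0.286% of all genes were called, and edgeR on the same sums called 0 as well. At an unadjusted p under 0.05 there were 4, namely PFKL, SLC16A3, CA12 and SLC16A1, and the share of all genes under that p was not counted. PFKL had the lowest p, with a log2 difference of 0.52 ± 0.18 (unadjusted p = 0.00407, adjusted p = 0.344), and it was called when replicate 1 was left out of every line (0.80 ± 0.21, adjusted p = 0.0259).

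Further genes of both processes were counted in the same way. Of all genes 44.9% were called in OVCAR3 ResA, 7.67% in OVCAR3 ResB, 11.9% in OVCAR4 ResA and 17.9% in OVCAR4 ResB. In PEA2 it was 47.0%, in PEO4 33.3% and in PEO6 41.4%. Called shares were near these for the hypoxia list in OVCAR4 ResB (21.1%) and the glucose list in PEO4 (35.7%). They were well above for others, such as the hypoxia list in PEO6 (73.7%). Of 20 other genes of the hypoxia response, 7 were higher and 7 lower in OVCAR3 ResA, 2 higher and none lower in OVCAR3 ResB, 4 higher and 2 lower in OVCAR4 ResA, 1 higher and 3 lower in OVCAR4 ResB, 6 and 6 in both PEA2 and PEO4, and 2 higher and 12 lower in PEO6. Of 15 other genes of glucose use, 6 were higher and 3 lower in OVCAR3 ResA, 3 higher and 1 lower in OVCAR4 ResA, and 4 higher and none lower in OVCAR4 ResB. This list had 2 higher and 5 lower in PEA2, 1 higher and 4 lower in PEO4, and 3 higher and 5 lower in PEO6. In OVCAR3 ResB DESeq2 called none, and 1 gene, FBP1, had an unadjusted p under 0.05 (adjusted p = 0.051). TMEM45A, a membrane protein gene induced by hypoxia, was called higher in 4 pairs, with 4.03 ± 0.23 in PEO4 (adjusted p = 6.81e-64) and 3.23 ± 0.30 in PEO6 (adjusted p = 1.48e-24), and lower in PEA2 (-1.61). STC2, a secreted glycoprotein, was lower in 4 pairs, most in PEO6 (-1.56 ± 0.29, adjusted p = 5.32e-07), and higher in PEA2 (1.66 ± 0.24, adjusted p = 6.02e-11). The neuronal glucose carrier SLC2A3 rose in PEO4 (1.34 ± 0.20, adjusted p = 1.6e-10) and PEO6 (1.02 ± 0.27, adjusted p = 0.000772), where SLC2A1 was not called and fell respectively.

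How far single libraries carried the calls differed by pair. In OVCAR3 ResA 15 of the 24 called members stayed called whichever replicate number was left out, in PEA2 12 of 19, in PEO4 10 of 16 and in PEO6 14 of 25. In OVCAR3 ResB 2 of 4 did (SLC16A3 and EPAS1). In OVCAR4 ResA 2 of 8 did (CA12 and BNIP3) and in OVCAR4 ResB 2 of 10 (ADM and NDRG1). Between resistant lines it was 3 of 6 in OVCAR3 ResB against ResA (EGLN3, CA12 and SLC16A3). It was 12 of 20 in OVCAR4 ResB against ResA and 5 of 16 in PEO6 against PEO4. Without replicate 1 the OVCAR4 ResA and OVCAR4 ResB pairs gave 19 and 23 called members, and without replicate 3 OVCAR3 ResB gave 9. The share of all genes called in those fits was not counted, so these numbers do not set the members apart. In PEO6 the 15 glycolysis genes called lower became 8 without replicate 2, with 1 higher. The SD between replicates on the log2 scale had a median of 0.361 over the glycolysis genes and 0.480 over the hypoxia targets, against 0.336 over 13249 genes. In RefSeq 15 members have named pseudogenes, among them GAPDH with 65 and BNIP3 with 46, so reads of these genes could be shared with copies not counted here. The 3 pseudogenes counted, of TPI1 and PGAM1, held at most 0.391% of their gene's TPM. Antisense genes of SLC2A1 and SLC16A1 reached 5.06 and 5.83% of their gene, and the use of strand in counting is not given in the sources used here.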

How the data were processed

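RNA was measured in 33 libraries prepared with an mRNA kit. The authors deposited a gene table of expected counts and a gene table of TPM, made with the nf-core RNA-seq pipeline and salmon on GRCh38 per the study's methods, while the submitters' processing notes name DRAGEN. Of the deposited expected counts 88.4% were whole, and they were rounded before testing. No other sample columns were used. Lines were grouped by the labels, which name no batch. Each pair was fitted in DESeq2 1.42.0 (R 4.3.3) on its 6 libraries as line plus replicate number, with median-of-ratios size factors, no filter, and calls at a Benjamini-Hochberg adjusted p under 0.05 over all genes of the pair. Resistant and sensitive lines were also compared on counts summed per line, with the family in the model, and unequal change over the 7 pairs by a likelihood-ratio test. Genes that were 0 everywhere numbered 4956.

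Alternatives were edgeR 4.0.16, limma 3.58.1 on log2(TPM + 1) or log2(TPM + 0.1), a filter of at least 10 counts in 3 libraries, 1 fit of all 33 libraries, no replicate block, and leaving out each replicate. The fits were tested on simulated data. The correlation of same-numbered libraries was above 0.1 for all 3 numbers in 2 of the 10 comparisons, OVCAR3 ResA against OVCAR3 and OVCAR4 ResB against ResA. The members and lists were chosen with earlier results of these data known. Values are given for every library for the glycolysis gene and the hypoxia target with the largest rise and the largest fall in each pair, among called members of 1 sign in the 3 numbered library pairs with mean normalised counts of 100 or more, and for HIF1A and EPAS1. Other members described with values were chosen after those values were seen. Pseudogenes, antisense genes and promoters came from RefSeq (GRCh38.p14). The number of replicates limits the precision.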

Additional observations from a re-analysis of the deposited data

Results flagged for a closer look

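For 30 of the 33 members the change between resistant and sensitive line differed between the 7 pairs by a likelihood-ratio test in DESeq2, where 68.6% of all genes passed the same test. EPAS1 gave an example of opposite sign, at 3.13 in OVCAR3 ResA and -3.79 in PEO4, as did EGLN3, at -3.69 in OVCAR3 ResA and 3.52 in PEA2, and CA12, at 2.12 in OVCAR4 ResA and -6.79 in PEO6. The 3 members that did not pass were PFKL, ENO1 and HIF1A.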

How the results depend on the processing

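The counts of members called depended on the setting in most comparisons, with wide shifts in the OVCAR3 ResB and OVCAR4 pairs and in PEO6 against PEO4. In 1 fit of all 33 libraries the count went from 24 to 12 in OVCAR3 ResA, 4 to 9 in OVCAR3 ResB, 8 to 14 in OVCAR4 ResA, 10 to 16 in OVCAR4 ResB and 16 to 9 in PEO4, from 6 to 12 in OVCAR3 ResB against ResA, and from 20 to 12 in OVCAR4 ResB against ResA. edgeR gave 2 in OVCAR3 ResB, and 3 and 4 in the OVCAR4 pairs with ResA and ResB. limma on log2(TPM + 1) of genes with a mean TPM of at least 1 gave 2, 1 and 0 in those 3 pairs, 3 in OVCAR3 ResB against ResA and 5 in PEO6 against PEO4. With a pseudocount of 0.1 it gave 2, 1 and 2 there, 11 in PEA2, 8 in PEO4, 14 in PEO6, and 3, 10 and 3 in the comparisons of OVCAR3, OVCAR4 and PEO resistant lines with each other. Without the TPM filter it gave 7 in OVCAR3 ResA, 2 in PEA2, 1 in PEO4, 3 in PEO6, 1 in OVCAR4 ResB against ResA, and 0 in the remaining 5 comparisons. Without the replicate block OVCAR4 ResB against ResA gave 7 in place of 20, and the other counts stayed within 1.5 times. A fit with the mitochondrial rRNA share as a covariate, chosen after seeing the data, gave 13 in OVCAR3 ResB, 16 and 17 in the OVCAR4 ResA and ResB pairs, 17 in OVCAR3 ResB against ResA and 25 in PEO6 against PEO4. The cause of these shifts was not tested. The share of all genes called was counted only for the main fits, not for these settings or with a replicate left out.

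With 1 replicate number left out, the counts ran from 17 to 18 in OVCAR3 ResA, 2 to 9 in OVCAR3 ResB, 2 to 19 in OVCAR4 ResA, 2 to 23 in OVCAR4 ResB, 12 to 18 in PEA2, 10 to 22 in PEO4 and 15 to 23 in PEO6. Between resistant lines of OVCAR3 they ran from 3 to 15, between those of OVCAR4 from 12 to 20, and between PEO6 and PEO4 from 5 to 23. The highest counts came without replicate 1 in the OVCAR4 pairs and without replicate 3 in the OVCAR3 ResB pairs, and the lowest count in PEO6 came without replicate 2. They ran from 0 to 1 at the level of lines and from 25 to 30 for unequal change. Of the 37 changes that the rule for named genes picked, none that was called in either fit reversed in 11 alternatives (407 values). Most were picked because they were called with 1 sign in the 3 numbered library pairs, so a reversal was unlikely from the start. Calls were lost for 24 in limma without the TPM filter, for 8 in each limma fit with it, and for 7 without replicate 3.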

Other observations

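ALDOC, the aldolase of brain, differed between families in level. Its mean level ran from 0.191 TPM in PEO1 to 52.0 TPM in OVCAR4 ResB, and its share of the summed ALDOA and ALDOC TPM was 1.40 to 3.35% in the OVCAR3 and OVCAR4 families and 0.0137 to 0.147% in the PEA and PEO families. Only the OVCAR3 and OVCAR4 media held insulin, so family and medium cannot be told apart here. In PEO6 ALDOC rose from the low level of PEO1 by 2.81 ± 0.77 on the log2 scale (adjusted p = 0.00117), in a pair in which 15 of the 23 glycolysis genes fell. LDHB had the narrowest range of mean levels among the genes of lactate handling, from 1250 to 2060 TPM over the 11 lines, a 1.65-fold range.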
